A study of Mus with 12 samples.

Results

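Potassium channel genes were read across 4 days of pregnancy in the uterus of ICR mice, an outbred strain. The members are the gene rows whose symbol begins with Kcn followed by a subunit letter and number and which hold at least 1 Ensembl transcript. This rule uses names only and no measured value. It found 94 rows, of 92 symbols, among 87235 rows in the table of the implantation stage (E0.5 and E4.5) and 88 rows among 40787 in the table of the labor stage (E15.5 and E18.5). Of these, 72 and 51 had a mean of at least 0.1 FPKM (read fragments scaled to transcript length and library size) over the 6 libraries of their stage and entered the tests. The mice were pregnant, no treatment or engineered allele is given for any group, and the whole uterus of 1 mouse made each library, with 3 mice on each day and 12 libraries in all. The design text gives their age as 8 weeks, whereas the methods give a slightly higher age, at mating, so mice collected on later days would have been older. E0.5 was compared with E4.5 and E18.5 with E15.5. Each stage has its own assembly and normalization, so levels are compared within a table only.

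Potassium channels let potassium ions leave the cell down their gradient, which holds the membrane at a negative voltage and, in uterine smooth muscle, opposes the calcium entry that starts a contraction. Pore-forming subunits fall into voltage-gated channels, channels opened by intracellular calcium or sodium, inward rectifiers and two-pore-domain channels, which carry a steady leak current. Auxiliary subunits without a pore of their own (the Kcne, Kcnmb, Kcnab and Kcnip families) set how those channels open and how many reach the membrane. In the uterine epithelium the same channels also serve the movement of salt and water into and out of the lumen.

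Before any comparison, 1 library must be named. E4.5 replicate 3 held 1368 FPKM over 9 ovary marker genes, all 9 of them detected, against 4.29 to 6.49 FPKM in the other 5 libraries of its stage. Its oviduct markers (5 of 5 detected) summed to 91.0 FPKM against 4.22 to 19.1 elsewhere, and its 10 smooth muscle markers to 216 FPKM against 833 to 1264. Adipocyte markers, 4 of 4 detected, summed to 210.3, 69.5 and 70.0 FPKM in the E0.5 libraries, against 20.1, 6.89 and 74.6 FPKM in those of E4.5. Neuron and glia markers summed to 9.44 FPKM in E4.5 replicate 3, where 6 of 6 were detected, and to 1.06 to 2.51 FPKM in the other 5 libraries. Results of the implantation stage that rest on this library are therefore given with and without it. Among the 72 tested members, it was the highest of the 6 libraries for 30 and the lowest for 15, beside 24.0% and 18.2% of all tested rows. Uterine epithelium markers, 7 of 7 detected in all 12 libraries, summed to 225 to 267 FPKM at E0.5, 77.5 to 164 at E4.5, 197 to 419 at E15.5 and 608 to 833 at E18.5. At the labor stage yolk sac markers ranged from 11.1 to 880 FPKM and trophoblast markers from 3.92 to 74.6 FPKM between libraries, with trophoblast at 43.5 to 74.6 at E18.5. The part of these shifts in any result below was not tested. In whole tissue, fewer cells of a type and less RNA per cell cannot be told apart.

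The most abundant member was Kcnk1, a two-pore-domain leak channel. At the implantation stage it had 17.9, 20.8 and 21.9 FPKM at E0.5, against 15.6, 16.6 and 5.68 FPKM at E4.5, where the lowest value is that of replicate 3. The groups did not overlap, but the log2 fold change of 0.68 (SE 0.41, adjusted p = 0.429, edgeR quasi-likelihood test with Benjamini-Hochberg adjustment) did not pass. In the labor table Kcnk1 had 56.5, 47.7 and 41.5 FPKM at E18.5 and 21.2, 39.4 and 49.1 FPKM at E15.5, with overlap between the days. It was the highest member in 11 of 12 libraries. The exception was E4.5 replicate 3, where Kcnk3 stood first at 22.6 FPKM and Kcnj16 second at 11.7 FPKM.

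Summed over all members, potassium channel transcripts came to 96.2, 101 and 111 FPKM at E0.5, against 99.2, 90.3 and 141 FPKM at E4.5. The labor table gave 119, 154 and 175 FPKM at E15.5 and 189, 182.6 and 169 FPKM at E18.5. In the labor table the auxiliary subunits alone made 50.6 to 73.0 FPKM, and the two-pore-domain channels 29.0 to 75.03 FPKM. These sums rest on few genes, with Kcnk1 holding 15.7% to 29.9% of the total in the libraries where it was highest. Between 21 and 32 members reached 1 FPKM in a library.

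**Figure D1:**
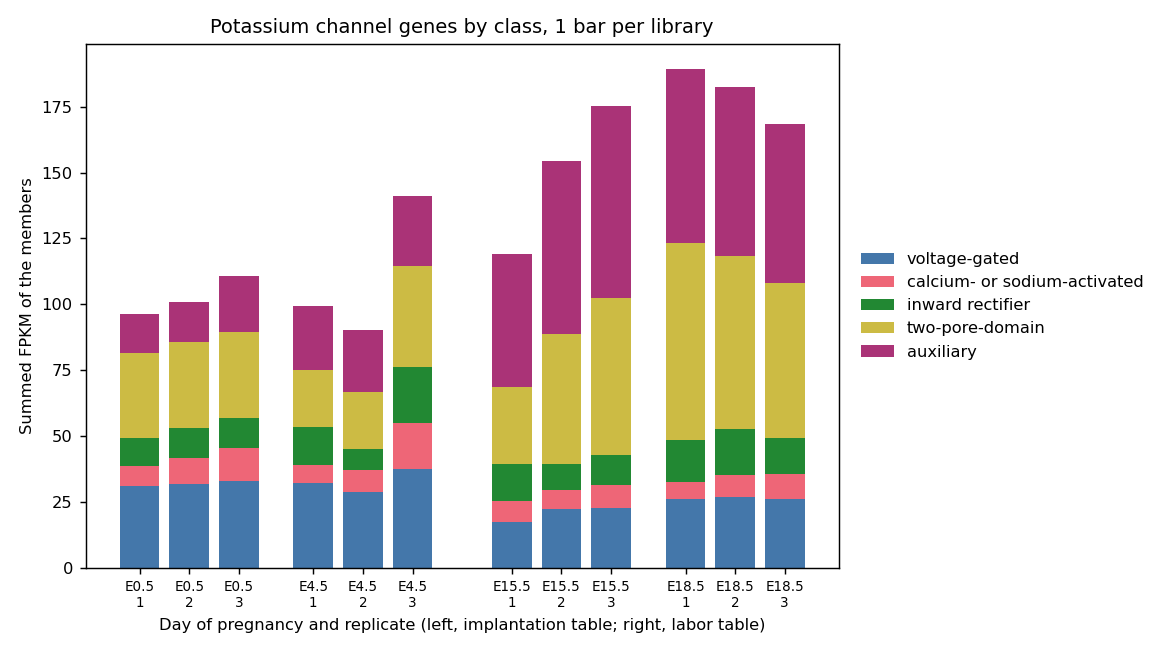
Summed FPKM of the potassium channel genes in each library (vertical axis), stacked by class, with 1 bar per mouse in order of day and replicate. E4.5 replicate 3 stands at 141 FPKM against 90.3 and 99.2 in the other E4.5 libraries, and the E18.5 bars run from 169 to 189 FPKM. The left and right tables were normalized separately, so bars are comparable within a table only.

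Other members among the 8 highest of a table were Kcne2, Kcne4, Kcnh2, Kcnj8, Kcnj13, Kcnk3, Kcnk5, Kcnma1, Kcnmb1 and Kcnq1. In the labor table Kcne4 had 19.7, 23.6 and 27.7 FPKM at E15.5 and 31.2, 21.7 and 31.0 FPKM at E18.5. Kcne2, an auxiliary subunit that joins Kcnq1 in several epithelia, had 19.6, 30.3 and 32.7 FPKM at E15.5 and 21.4, 28.3 and 13.9 FPKM at E18.5. Both overlapped between the days. At the implantation stage Kcne2 was between 0.158 and 0.700 FPKM in every library of its own table.

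E0.5 was set against E4.5 to ask which channels differ between the first hours after mating and the time of implantation. A member is called here by the study's own criterion, a log2 fold change of 1 or more in either direction together with an unadjusted p below 0.05 (edgeR quasi-likelihood test on the counts). Of 72 tested members 17 were called (23.6%), where 12.2% of all 59732 tested rows and 14.6% of the protein-coding rows were called. At E0.5, 5 of the members were higher and 12 lower, beside 6.37% and 5.82% of all rows. After Benjamini-Hochberg adjustment over all rows, 2 members passed, Kcnip2 and Kcnd2, against 1.2% of all rows. The members' median log2 fold change was -0.28, with 29 of 72 positive, beside -0.007 and 49.6% positive for all rows. Without E4.5 replicate 3, 19 members were called, 12 higher and 7 lower, and 11 passed the adjusted p, against 14.1% and 5.35% of all rows. The members' median was then -0.004. Of the tested members, 5 reached the mean of 0.1 FPKM through E4.5 replicate 3 alone (Kcna4, Kcne1, Kcnj3, Kcnj16 and Kcns2), and 3 of these are among the 17 calls (Kcna4, Kcnj3 and Kcns2). These 3 and Kcnb2 averaged under 0.1 FPKM at E0.5, so that they entered the test through E4.5, where they were higher. Of the calls, 11 were shared between the fits, 6 were made only with the library and 8 only without it. In 23 tested members (31.9%) the groups did not overlap in FPKM, beside 25.2% of all tested rows.

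The member with the largest fold toward E0.5 with all libraries was an auxiliary subunit. Kcnip2, a calcium-binding subunit of the Kv4 channels (Kcnd genes) that carry fast transient outward currents, had 3.83, 3.02 and 6.51 FPKM at E0.5, against 0.569, 0.303 and 0.492 FPKM at E4.5. Every E0.5 library was above every E4.5 library, E4.5 replicate 3 included. It was higher at E0.5 than at E4.5 by 9.66-fold, a log2 fold change of 3.27 (SE 0.41, adjusted p = 0.0264, edgeR), and 3.31 (SE 0.48, adjusted p = 0.0124) without E4.5 replicate 3. Its row spans positions 45791839 to 45816341 of chromosome 19 (minus strand) as the table gives them, and like the other member rows it overlaps its namesake in the RefSeq annotation of GRCm38.

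Kcnd2, which encodes the Kv4.2 pore that Kcnip2 can join, went the opposite way. It had 0.183, 0.222 and 0.358 FPKM at E0.5, against 1.26, 3.32 and 4.30 FPKM at E4.5, with no overlap. It was lower at E0.5 by 11.3-fold (log2 fold change -3.50, SE 0.51, adjusted p = 0.0363, edgeR), and at -3.15 (SE 0.47, adjusted p = 0.0133) without E4.5 replicate 3. The row covers chromosome 6 from 21215503 to 21729805 on the plus strand and rests on 1 Ensembl transcript, and the table holds 44 further rows named for Kcnd2 without one, which are no members. Those rows, each scaled to its own length, summed to 4.79, 6.44 and 18.2 FPKM at E0.5, against 55.7, 149.9 and 136 FPKM at E4.5, so that the member row does not cover all that carries the name. When any 1 of the other 5 libraries was left out, 0 members passed the adjusted p, while 13 to 21 met the study's criterion. Kcnd3, the Kv4.3 pore, was at 1.92 to 2.32 FPKM at E0.5 and 1.22 to 2.85 FPKM at E4.5, with a log2 fold change of -0.04 (SE 0.32).

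Kcnip3, another calcium-binding subunit that is also known as a transcriptional repressor, had 0.897, 1.32 and 1.12 FPKM at E0.5, against 3.24, 2.62 and 4.12 FPKM at E4.5. The E0.5 values lay below all those of E4.5, with a log2 fold change of -1.56 (SE 0.27, adjusted p = 0.0529, edgeR), and -1.41 (SE 0.26, adjusted p = 0.0275) without E4.5 replicate 3. The related Kcnip1 was at 0.115 to 0.356 FPKM at E0.5 and 0.204 to 1.13 FPKM at E4.5, and was called only without replicate 3 (log2 fold change -2.16, adjusted p = 0.0581).

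Kcne4, an inhibitory partner of voltage-gated channels, depended on 1 library. It had 1.48, 1.74 and 1.76 FPKM at E0.5, against 8.08, 7.32 and 1.33 FPKM at E4.5. The first and second E4.5 libraries stood far above E0.5 and replicate 3 below it. The log2 fold change was -1.76 (SE 0.63, adjusted p = 0.231, edgeR) with all libraries and -2.23 (SE 0.20, adjusted p = 0.0028) without replicate 3. Kcne3, a partner of Kcnq1 in epithelia, had 3.28, 1.70 and 0.717 FPKM at E0.5, against 0.541, 0.497 and 4.99 FPKM at E4.5. Its log2 fold change turned from -0.04 (adjusted p = 0.989) to 1.83 (SE 0.60, adjusted p = 0.137) without replicate 3, the library with the highest value. Oviduct markers summed to 91.0 FPKM in that library and to 19.1, 5.80 and 5.90 FPKM at E0.5, and adipocyte markers were likewise highest at E0.5 in replicate 1 and at E4.5 in replicate 3. The part of either in the Kcne3 values was not tested.

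Among the remaining auxiliary members, Kcne2 was called at 0.158 to 0.205 FPKM at E0.5 against 0.261 to 0.700 at E4.5 (log2 fold change -1.36, SE 0.54, adjusted p = 0.268), and not without replicate 3 (-0.99). Kcnab1, a cytoplasmic beta subunit, had 0.746, 0.577 and 0.845 FPKM at E0.5, against 1.21, 1.33 and 1.71 FPKM at E4.5. Its groups did not overlap, and at a log2 fold change of -0.95 (SE 0.22, adjusted p = 0.0999, edgeR) it stayed just under the fold limit. Of 16 tested auxiliary members 5 were called (31.2%, beside 12.2% of all rows), 1 higher and 4 lower at E0.5. Their median log2 fold change was -0.96, beside -0.007 for all rows (-0.77 without replicate 3, 2 higher and 3 lower). A row that joins Kcnab1 to A330015K06Rik is 1 of the 16 by its name, but it holds antisense transcripts only, and without it the median was -0.95 over 15 members with the same 5 calls. Kcne1 was at 0 to 0.217 FPKM in the 6 libraries.

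Calcium- or sodium-activated channels had 1 call in 8 tested members (12.5%, beside 12.2% of all rows) and 2 without replicate 3, Kcnn4 and Kcnt1. Kcnt1, a sodium-activated channel, had log2 fold changes of -1.66 with all libraries and 1.33 (adjusted p = 0.0956) without replicate 3. The call with all libraries was Kcnn4, the intermediate-conductance channel KCa3.1 of epithelial, endothelial and immune cells, with 1.82, 1.67 and 2.45 FPKM at E0.5, against 0.224, 0.0942 and 0.517 FPKM at E4.5. All E0.5 libraries were above all E4.5 libraries, and the highest E4.5 value was that of replicate 3. The log2 fold change was 2.83 (SE 0.59, adjusted p = 0.0775, edgeR) and 3.57 (SE 0.46, adjusted p = 0.0088) without that library. The gene lies on chromosome 7 from 24370263 to 24386690, on the plus strand. Uterine epithelium markers also summed higher at E0.5 (225 to 267 against 77.5 to 164 FPKM), and their part in this difference was not tested. Krt8, Krt19, Epcam and Cdh1 were higher in every E0.5 library, whereas Krt18, Cldn4 and Foxa2 overlapped between the days. Cldn4 had 14.1 and 13.1 FPKM in E4.5 replicates 1 and 2, against 7.59 to 11.3 FPKM at E0.5.

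The small-conductance channels Kcnn1, Kcnn2 and Kcnn3, which open on calcium alone, did not pass. Kcnn3, which has been linked to a quiet uterus in pregnancy, had 1.20, 3.54 and 3.81 FPKM at E0.5, against 2.01, 3.47 and 0.197 FPKM at E4.5. Its range within each day was wider than the difference between the days (log2 fold change 0.60, SE 0.91, and 0.06, SE 0.49, without replicate 3).

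Kcnma1, the large-conductance BK channel of smooth muscle, had 1.39, 1.41 and 2.51 FPKM at E0.5, against 1.75, 1.93 and 7.66 FPKM at E4.5. Its log2 fold change of -1.06 (SE 0.59, adjusted p = 0.401) went to -0.07 (SE 0.29) without replicate 3. Its smooth muscle beta subunit Kcnmb1 had 0.286, 1.76 and 5.26 FPKM at E0.5, against 4.67, 5.52 and 0.229 FPKM at E4.5, an overlap with low values in E0.5 replicate 1 and E4.5 replicate 3. So in replicate 3 of E4.5 the BK pore was at its highest and the beta subunit at its lowest. Kcnmb1 lies inside Kcnip1 on the opposite strand, and the sources used here do not say whether reads were assigned by strand. Kcnmb2, another BK beta subunit, was at 0.0407 to 0.496 FPKM at E0.5, against 0.117, 0.290 and 1.60 FPKM at E4.5.

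**Figure D2:**
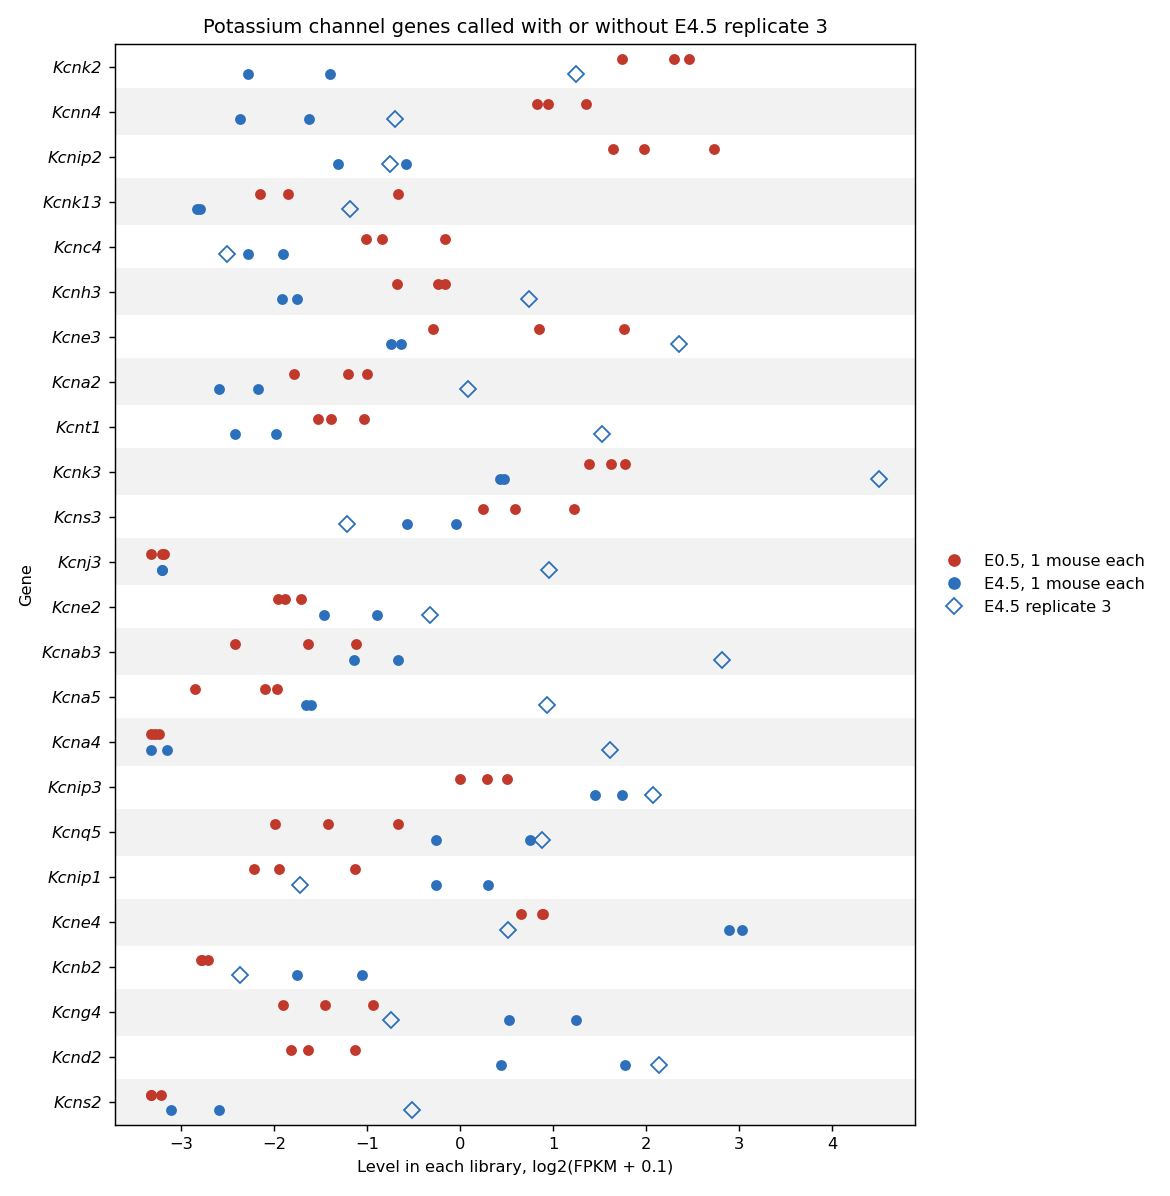
Levels in each library, as log2(FPKM + 0.1) (horizontal axis), of 24 of the 25 potassium channel genes called at the implantation stage with or without E4.5 replicate 3 (open diamond), with 1 point per mouse. Kcnip2 and Kcnn4 are separated between the days in all libraries, whereas for Kcnk3, Kcnt1, Kcna2 and Kcnh3 the diamond lies above all other points.

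Two-pore-domain channels had 0 calls among 8 tested members with all libraries, beside 12.2% of all rows. Without replicate 3 there were 3, beside 14.1% of all rows, all 3 higher at E0.5 (Kcnk2, Kcnk3 and Kcnk13). Kcnk2 encodes TREK-1, a stretch-sensitive leak channel found in uterine muscle. It had 5.42, 4.80 and 3.24 FPKM at E0.5, against 0.106, 0.280 and 2.27 FPKM at E4.5. All E0.5 values were above all E4.5 values, with replicate 3 nearest to E0.5. The log2 fold change was 2.39 (SE 1.02, adjusted p = 0.3, edgeR) with all libraries and 4.52 (SE 0.48, adjusted p = 0.0046), or 22.9-fold, without replicate 3.

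Kcnk3, the acid-sensitive leak channel TASK-1, had 2.98, 2.50 and 3.32 FPKM at E0.5, against 1.25, 1.28 and 22.6 FPKM at E4.5. Its log2 fold change turned from -1.46 (SE 1.08, adjusted p = 0.53, edgeR) to 1.20 (SE 0.22, adjusted p = 0.0255) without replicate 3. Kcnk5, the alkaline-activated channel TASK-2, had 2.07, 1.98 and 1.11 FPKM at E0.5, against 2.37, 2.07 and 4.13 FPKM at E4.5, with overlap (log2 fold change -0.71, SE 0.35, adjusted p = 0.346). Kcnk6 did not overlap between the days, at 1.85 to 2.37 FPKM at E0.5 and 0.865 to 1.38 FPKM at E4.5 (log2 fold change 0.93, SE 0.27).

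Voltage-gated pores were the largest class, with 30 of the 72 tested members. Of these 10 were called (33.3%), 3 higher and 7 lower at E0.5, where 5 of 16 auxiliary subunits (31.2%) and 12.2% of all rows were called. Of the 7 lower calls 3 (Kcna4, Kcnb2 and Kcns2) entered the test only through E4.5, where they were higher, so that this share and split are no support for the class. The median log2 fold change of the class was -0.03. Without replicate 3, 9 were called (30.0%), 5 higher and 4 lower, beside 14.1% of all rows.

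Kcnq5, a voltage-gated pore of smooth muscle and brain, was lower at E0.5, with 0.273, 0.151 and 0.529 FPKM against 1.58, 0.733 and 1.73 FPKM and no overlap (log2 fold change -2.07, SE 0.54, adjusted p = 0.127). Kcnq1, the cardiac and epithelial KvLQT1 channel, had 6.03, 5.33 and 5.07 FPKM at E0.5, against 3.87, 4.26 and 2.66 FPKM at E4.5. It did not overlap between the days but stayed under the fold limit (log2 fold change 0.61, SE 0.23, adjusted p = 0.254). Its row overlaps the antisense transcript Kcnq1ot1, whose reads cannot be told apart from it without strand.

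The silent subunits, which open no channel alone but alter Kv2 channels, had 3 calls among 8 tested members (the Kcnf, Kcng, Kcns and Kcnv genes), 1 higher and 2 lower at E0.5, and 2 without replicate 3, beside 12.2% and 14.1% of all rows. Kcng4 had 0.167, 0.266 and 0.421 FPKM at E0.5, against 2.28, 1.34 and 0.496 FPKM at E4.5, lowest at E4.5 in replicate 3 and without overlap (log2 fold change -2.27, SE 0.65, adjusted p = 0.149, and -2.67, adjusted p = 0.0215, without replicate 3). Kcns3 had 1.40, 1.08 and 2.23 FPKM at E0.5, against 0.869, 0.572 and 0.332 FPKM at E4.5 (log2 fold change 1.39, SE 0.47, adjusted p = 0.207). Kcns2 rested on counts of 0, 0 and 4 at E0.5 and 8, 30 and 271 at E4.5, with all E4.5 counts above those of E0.5. It met the criterion with all libraries and not without replicate 3, where the log2 fold change was -3.74 (SE 2.05, adjusted p = 0.363). Kcns2 reached the filter through E4.5 replicate 3 alone, so that its call is no support for the silent subunits.

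Kcnb2, a Kv2 pore that these subunits can join, had 0.0465, 0.0525 and 0.0450 FPKM at E0.5, against 0.197, 0.381 and 0.0935 FPKM at E4.5. This row, with no overlap, had a log2 fold change of -2.20 (SE 0.54, adjusted p = 0.11, edgeR) and -2.58 (SE 0.36, adjusted p = 0.0107) without replicate 3. It does not cover all that carries the name, since 37 further rows named for Kcnb2 without an Ensembl transcript summed to 8.36, 6.36 and 15.55 FPKM at E0.5, against 63.0, 60.5 and 34.4 FPKM at E4.5. Each of those rows is scaled to its own length, so that their sum is no level of the gene. Kcnc4, a fast Kv3 pore, had 0.792, 0.458 and 0.396 FPKM at E0.5, against 0.166, 0.105 and 0.0762 FPKM at E4.5, again without overlap (log2 fold change 2.21, SE 0.49, adjusted p = 0.0894).

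Calls among the Shaker-type Kv1 pores changed with 1 library. Kcna5 had 0.155, 0.0391 and 0.134 FPKM at E0.5, against 0.217, 0.228 and 1.81 FPKM at E4.5, and its log2 fold change of -2.71 (SE 0.99, adjusted p = 0.238) went to -1.02 (adjusted p = 0.497) without replicate 3. Kcna4 was at most 0.0126 FPKM in the other 5 libraries and 2.95 FPKM in replicate 3. Kcna2, a Kv1 pore of neurons, was called only without that library and toward E0.5. It had 0.401, 0.332 and 0.190 FPKM at E0.5, against 0.0652, 0.122 and 0.959 FPKM at E4.5, and its log2 fold change went from -0.26 (SE 0.93, adjusted p = 0.911) to 1.70 (SE 0.44, adjusted p = 0.0769). The E0.5 values lay above the other 2 E4.5 libraries and below replicate 3. Neuron and glia markers were also highest in replicate 3, and their part in the Kv1 values was not tested. Kcna3, a channel of lymphocytes, had 0.148 to 0.525 FPKM at E0.5 and 0.219 to 0.510 at E4.5 (log2 fold change -0.05, SE 0.62). Kcnh2, the hERG channel of heart and uterine muscle, was among the 4 highest members, at 4.71, 6.68 and 6.13 FPKM at E0.5, against 5.96, 3.96 and 4.67 FPKM at E4.5. These overlapped (log2 fold change 0.27, SE 0.25).

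Inward rectifiers had 1 call in 10 tested members (10.0%, beside 12.2% of all rows), and 0 without E4.5 replicate 3, beside 14.1% of all rows. The call was Kcnj3, at most 0.0097 FPKM in 5 libraries and 1.84 FPKM in replicate 3, through which alone it reached the filter. Kcnj16 had counts of 0 in 4 libraries and stood at 0.0439 FPKM in E0.5 replicate 3 and 11.7 FPKM in E4.5 replicate 3. Kcnj8, the Kir6.1 pore of ATP-sensitive channels in vessels and smooth muscle, had 6.02, 6.84 and 7.90 FPKM at E0.5, against 8.80, 2.25 and 2.79 FPKM at E4.5, with overlap through E4.5 replicate 1 (log2 fold change 0.56, SE 0.55). Kcnj13 (Kir7.1), reported to hold the mid-pregnancy uterus at rest, had 2.17, 2.27 and 1.95 FPKM at E0.5, against 2.77, 3.05 and 2.64 FPKM at E4.5. Its days did not overlap, but at a log2 fold change of -0.40 (SE 0.19, adjusted p = 0.344) it was not called. Kcnj2 overlapped at 0.780 to 1.62 FPKM, and Kcnj11 was not tested, at 0.127 FPKM or below.

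**Figure D3:**
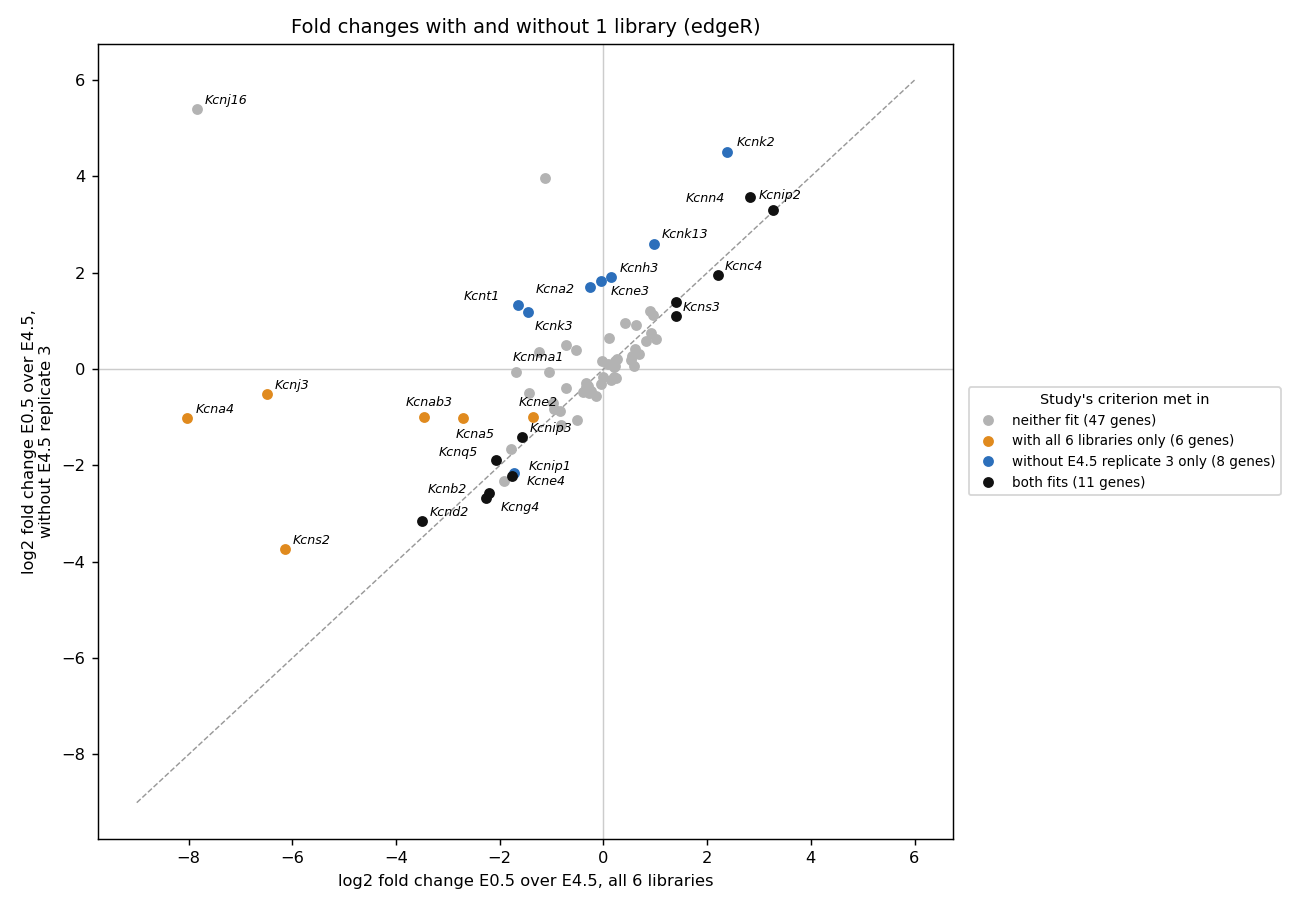
Log2 fold changes of E0.5 over E4.5 for the 72 tested potassium channel genes, with all 6 libraries (horizontal axis) and without E4.5 replicate 3 (vertical axis), from edgeR, with equal values on the dashed line and colour for where the study's criterion was met. Kcnip2, Kcnd2 and Kcnip3 lie close to the line, and Kcnk3, Kcnt1 and Kcnj16 change sign.

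E18.5 was set against E15.5 to ask which channels differ between the eve of labor and 3 days earlier. Here 4 of 51 tested members were called (7.84%), where 6.05% of all 30928 tested rows and 5.03% of the protein-coding rows were called. At E18.5, 2 of them were higher and 2 lower, beside 3.11% and 2.93% of all rows. After Benjamini-Hochberg adjustment 0 members passed with limma, against 0.0259% of all rows, and 11 members had an unadjusted p under 0.05, which held for 12.2% of all rows. The members' median log2 fold change was 0.05, with 28 of 51 positive, beside 0.02 for all rows. In 18 members (35.3%) the days did not overlap, 12 higher and 6 lower at E18.5, beside 19.9% of all tested rows, 10.9% higher and 8.96% lower. No member was called in both stages. The counts are on the log2(FPKM + 0.1) scale, which understates the change of low genes.

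Kcnk5 had the clearest separation. It stood at 13.9, 14.0 and 13.5 FPKM at E18.5 and 4.21, 5.68 and 6.09 FPKM at E15.5. The E18.5 libraries lay close together and all above those of E15.5. The log2 fold change was 1.38 (SE 0.16, unadjusted p = 6.5e-05, adjusted p = 0.0648, limma with Benjamini-Hochberg adjustment), or 2.60-fold. The adjusted p was between 0.0316, without E15.5 replicate 1, and 0.279 when 1 library was left out. The gene spans positions 20140057 to 20181809 of chromosome 14, minus strand. Uterine epithelium markers summed higher in the same libraries (608 to 833 against 197 to 419 FPKM), though Foxa2 overlapped between the days. Their part in this difference was not tested.

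Kcnk2 had 1.09, 0.520 and 0.506 FPKM at E18.5 and 0.175, 0.332 and 0.374 FPKM at E15.5. The days did not overlap, and the log2 fold change of 0.99 (SE 0.38, adjusted p = 0.375, limma) was just short of the criterion. Kcnk3 was at most 0.202 FPKM in any library of the labor table (log2 fold change -0.02, SE 0.36). Kcnk6 was the steadiest, at 2.23 to 2.40 FPKM at E18.5 and 2.13 to 2.50 FPKM at E15.5.

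Among voltage-gated pores 3 of 19 tested were called (15.8%, beside 6.05% of all rows). Positive log2 fold changes were found in 15 of the 19, with a median of 0.35, where 52.3% of all rows were positive with a median of 0.02. Kcnq1 had 4.43, 3.55 and 3.28 FPKM at E18.5 and 1.002, 1.54 and 2.51 FPKM at E15.5. All E18.5 values were above all E15.5 values (log2 fold change 1.19, SE 0.32, adjusted p = 0.224, limma), and the call was lost without E15.5 replicate 1 (0.89), the library with the lowest value and the lowest epithelium markers (197 FPKM).

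The 2 members lower at E18.5 were Kcna1 and Kcng3. Kcna1, a Kv1 pore best known from nerve axons, had 0.132, 0.294 and 0.285 FPKM at E18.5 and 1.04, 0.914 and 0.504 FPKM at E15.5 (log2 fold change -1.44, SE 0.37, adjusted p = 0.21, limma). Kcng3, a silent subunit, had 0.245, 0.241 and 0.417 FPKM at E18.5 and 1.46, 1.02 and 0.656 FPKM at E15.5 (log2 fold change -1.48, SE 0.35, adjusted p = 0.185). In both genes the days did not overlap, and both kept the criterion whichever library was left out. Both were under 1 FPKM on average at E18.5, and with a pseudocount of 1 Kcnk5 alone met the criterion.

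Kcns3 did not overlap between the days, at 4.82, 2.25 and 1.82 FPKM at E18.5 against 1.70, 1.56 and 1.31 FPKM at E15.5 (log2 fold change 0.80, SE 0.35, limma). Kcnd3 was at 0.371 to 0.646 FPKM at E18.5 and 0.266 to 0.286 FPKM at E15.5 (log2 fold change 0.57, SE 0.30). Kcnh2, Kcnq5, Kcnd2, Kcna3 and Kcna5 overlapped between the days, with log2 fold changes between 0.04 and 0.38.

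**Figure D4:**
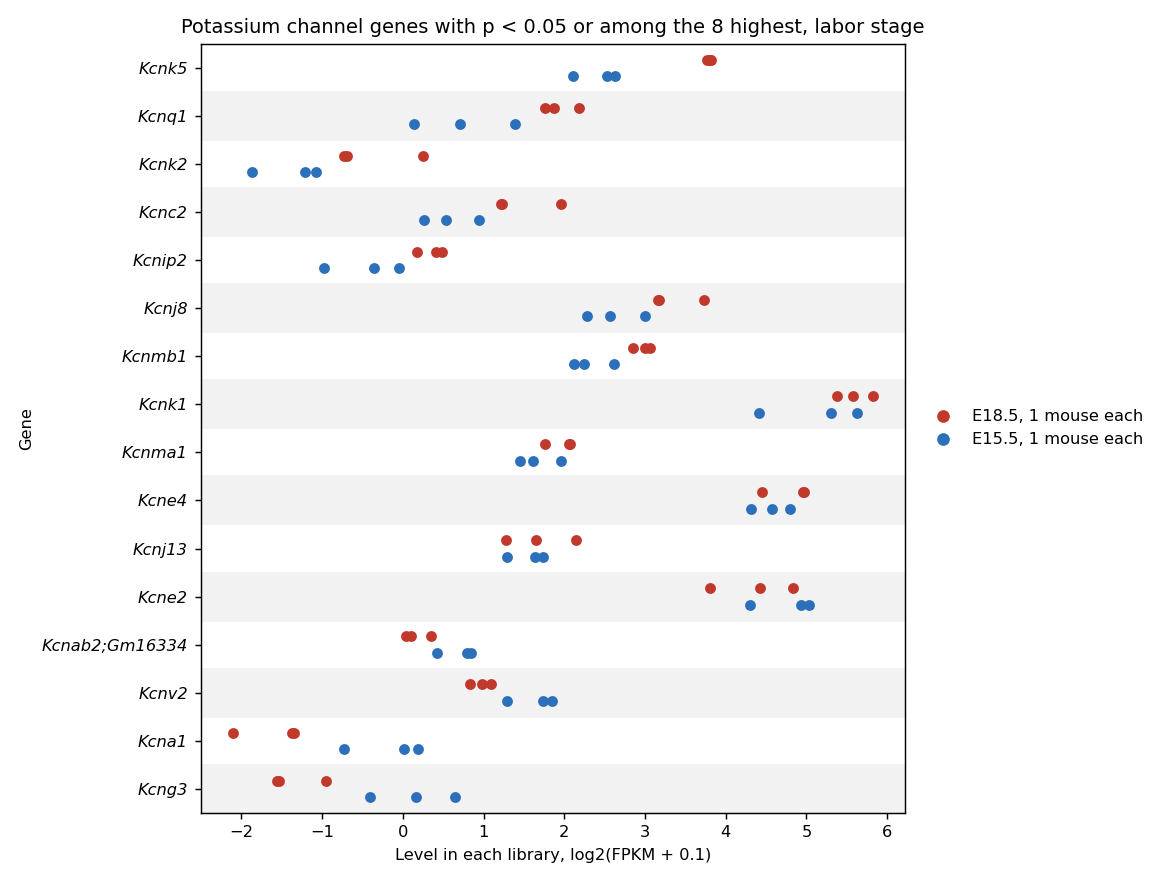
Levels in each library, as log2(FPKM + 0.1) (horizontal axis), of potassium channel genes with an unadjusted p under 0.05 or among the 8 highest of the labor table, with 1 point per mouse. The 3 E18.5 points of Kcnk5 nearly coincide above those of E15.5, and Kcna1 and Kcng3 lie lower at E18.5, while Kcnk1, Kcnma1, Kcne4, Kcnj13 and Kcne2 overlap.

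The BK channel and its beta subunit differed in how they separated. Kcnmb1 had 8.27, 7.11 and 7.89 FPKM at E18.5 and 4.24, 4.65 and 6.02 FPKM at E15.5, all E18.5 values higher (log2 fold change 0.65, SE 0.16, unadjusted p = 0.0058, adjusted p = 0.205, limma). Kcnma1 had 3.30, 4.09 and 4.08 FPKM at E18.5 and 2.96, 2.64 and 3.79 FPKM at E15.5, with overlap (log2 fold change 0.29, SE 0.18). Smooth muscle markers, 10 of 10 detected, summed to 3582 to 4522 FPKM at E18.5 and 2960 to 4004 FPKM at E15.5, and their part in this was not tested. Kcnmb2 and Kcnmb4 were not tested, at 0.168 FPKM or below.

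Calcium- or sodium-activated channels gave 0 calls among 7 tested members, beside 6.05% of all rows, with a median log2 fold change of -0.17. Kcnn3 was at 1.95 to 3.02 FPKM at E18.5 and 2.41 to 2.82 FPKM at E15.5, and its log2 fold change of -0.06 (SE 0.20) was smaller than its error. Kcnn4 had 0.296, 0.297 and 0.361 FPKM at E18.5 and 0.668, 0.513 and 0.393 FPKM at E15.5, lower at E18.5 without overlap (log2 fold change -0.56, SE 0.28, adjusted p = 0.483). Kcnn1 and Kcnn2 were at most 0.540 FPKM and overlapped.

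Inward rectifiers also gave 0 calls, among 5 tested members, beside 6.05% of all rows. Kcnj8 had 8.86, 13.1 and 8.89 FPKM at E18.5 and 7.91, 4.76 and 5.82 FPKM at E15.5, without overlap (log2 fold change 0.74, SE 0.24, adjusted p = 0.293, limma). Abcc9, whose sulfonylurea receptor completes the ATP-sensitive channel, was at 6.54 to 6.69 FPKM at E18.5 and 4.49 to 5.68 FPKM at E15.5 (log2 fold change 0.35, SE 0.13). Kcnj13 overlapped, at 2.33 to 4.34 FPKM at E18.5 and 2.35 to 3.23 FPKM at E15.5, as did Kcnj2.

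Auxiliary subunits gave 0 calls among 12 tested members, beside 6.05% of all rows. Kcnip2 had 1.03, 1.23 and 1.31 FPKM at E18.5 and 0.409, 0.678 and 0.867 FPKM at E15.5, without overlap (log2 fold change 0.82, SE 0.29, adjusted p = 0.332, limma). Kcnip3 overlapped, at 0.748 to 2.21 FPKM and 1.67 to 2.09 FPKM. Kcnab1 was at 0.907 to 1.15 FPKM at E18.5 and 1.18 to 1.40 FPKM at E15.5, without overlap (log2 fold change -0.34, SE 0.19). Kcne3 was at 0.508 to 0.983 FPKM against 0.358 to 0.470 FPKM (log2 fold change 0.51, SE 0.32).

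The effect of the day was then compared between the stages by subtracting the labor fold change from the implantation one, in limma over the 12 libraries on log2(FPKM + 0.1). Each fold change was taken within its own table, and 71 members with paired rows were tested. Of these 4 passed the adjusted p, Kcnn4, Kcnk5, Kcnd2 and Kcnip2 (5.63%), against 2.52% of 26597 paired rows. Kcnn4 had log2 fold changes of 2.60 at implantation and -0.56 at labor (difference 3.16, SE 0.54, adjusted p = 0.0146). Kcnk5 had -0.68 and 1.38 (difference -2.06, SE 0.40, adjusted p = 0.0247), but at implantation its days overlapped and its fold change did not pass. Kcnd2 had -2.98 and 0.04 (difference -3.01, SE 0.64, adjusted p = 0.0347). Kcnip2 had positive values in both stages, 3.00 and 0.82 (difference 2.17, SE 0.47, adjusted p = 0.0355). None of the 4 passed the adjusted p at labor alone.

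When 1 library at a time was left out, between 1 and 7 members passed the adjusted p in this comparison. Kcnn4 passed in 12 of 12 such fits, Kcnk5 in 8, Kcnip2 in 4 and Kcnd2 in 3. The count was 7 without E4.5 replicate 3, when 5.35% of all paired rows passed, and 1 without E15.5 replicate 2, E18.5 replicate 2 or E18.5 replicate 3. Kcnk2, higher by 2.98 at E0.5 and by 0.99 at E18.5, was not among the 4.

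**Figure D5:**
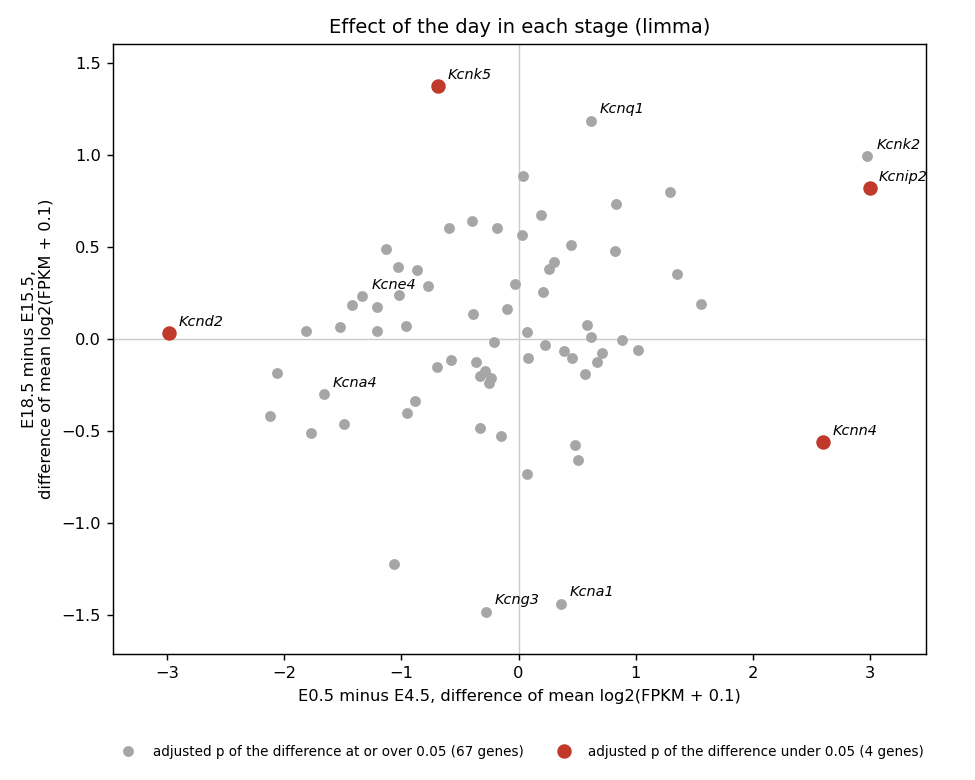
Difference of mean log2(FPKM + 0.1) between E0.5 and E4.5 (horizontal axis) and between E18.5 and E15.5 (vertical axis) for 71 potassium channel genes, 1 point per gene, from limma, with the 4 genes in red whose difference between the stages passed the adjusted p. Kcnn4 lies far right and below 0, Kcnk5 left of 0 and at the top, Kcnd2 far left near 0 and Kcnip2 far right.

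Genes that work beside the channels were read as fixed lists. Of 9 partner genes 4 were tested at the implantation stage. Lrrc26, a gamma subunit that lets BK channels open in non-excitable epithelial cells, had 10.6, 7.47 and 12.1 FPKM at E0.5, against 0.0350, 0.689 and 2.35 FPKM at E4.5. Its days did not overlap, at a log2 fold change of 3.34 (SE 1.12, adjusted p = 0.206, edgeR) and 4.80 (SE 0.98, adjusted p = 0.0373) without E4.5 replicate 3. Lrrc55, a related subunit, was called lower at E0.5 (log2 fold change -1.93, adjusted p = 0.139). At the labor stage 4 partner genes were tested and 0 called, beside 6.05% of all rows.

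The list of pump and cotransporter genes had 12 of 14 genes tested at implantation. Of these, 2 were called, both lower at E0.5, beside 12.2% of all rows called, and 0 passed the adjusted p. Slc12a2, the cotransporter NKCC1 that brings potassium and chloride into secretory epithelium, had 15.0, 12.3 and 11.0 FPKM at E0.5, against 24.1, 26.5 and 7.97 FPKM at E4.5. It was called only without replicate 3 (log2 fold change -1.01, SE 0.16, adjusted p = 0.0172). At labor 0 of 10 tested genes of this list were called, beside 6.05% of all rows.

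The filter of 0.1 FPKM left members out of the tests. Of 92 symbols, 49 passed the filter in both tables, 21 in the implantation table alone, 2 in the labor table alone and 20 in neither. Those outside included Kcnj11, the Kir6.2 pore of the ATP-sensitive channel, and Kcnmb4. The filter takes the mean over all 6 libraries of a stage, and without E4.5 replicate 3 in the filter 67 members would enter at implantation. Several rows merge or split genes, so that at the implantation stage Kcnip4 and Kcnab1 each have a second row, joined to 5730480H06Rik and A330015K06Rik and on the opposite strand, and Kcnab2 is joined to Gm16334 at the labor stage. A further 219 rows at implantation and 64 at labor carry a potassium channel name without an Ensembl transcript and are no members.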

How the data were processed

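RNA of whole uteri from 12 pregnant ICR mice was sequenced, 3 per day. The authors used Cutadapt for trimming, Bowtie2 and Tophat2 for alignment, and StringTie and Ballgown for assembly and expression. The submitters' processing notes name Bowtie 0.12.2, HISAT2 2.0 and StringTie 1.3.0 and the builds mm8 and mm10. The labels give poly(A) selection and the methods removal of ribosomal RNA. The FPKM values of both tables were made and deposited by the authors, and the whole-number counts per gene were deposited by the authors for the implantation stage only, with 58020989 to 70906881 counts per library. Members took 0.059% to 0.111% of them, and rows without a gene name 1.02% to 1.86%. Those rows were left in the tests, as the design had set. Depth at the labor stage is unknown. The value 0.0001 in the first table stands where the count is 0 and was set to 0.

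E0.5 against E4.5 was tested on counts with edgeR 4.0.16 (TMM, quasi-likelihood), and E18.5 against E15.5 and the difference between stages on log2(FPKM + 0.1) with trended limma 3.58.1, all under R 4.3.3, for rows that averaged 0.1 FPKM or more. For the difference, paired rows share Ensembl transcripts and pass that mean in at least 1 table. Adjusted p-values use Benjamini-Hochberg over all tested rows. Fitted folds take the first-named day over the second. The tests were tested on simulated data. Members, gene classes, partner and marker lists and tests were chosen with earlier results of these data known. Named genes are those meeting the study's criterion without overlap between days, the 8 highest per table, a fixed list of channels of uterus, muscle and epithelium, and those past the adjusted p in the difference between stages or called in both stages. Others are named after their values were seen: Kcna2, Kcna4, Kcnh3, Kcnip1, Kcnip4, Kcnab2, Kcnj3, Kcnj16, Kcnk6, Kcnk13 and Kcnt1. Partner and pump genes named were chosen by their values or as the main partner of a member. Alternatives were other filters, normalizations and pseudocounts, DESeq2 1.42.0, a replicate block and leaving out each library. Each library is 1 mouse, and the 3 mice of a group set the error. No sequences are shown, and a few genes that the rule names are not reported here. The sources used here give no strand setting for the counts.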

Additional observations from a re-analysis of the deposited data

Results flagged for a closer look

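The effect of the day differed between the implantation and labor stages in 4 potassium channel genes, by limma's test of the difference of the log2 fold changes over 12 libraries with Benjamini-Hochberg adjustment over 26597 paired rows. Kcnn4 differed by 3.16 (adjusted p = 0.0146), with a positive effect at implantation and a negative one at labor that did not pass by itself. Kcnip2 differed by 2.17 (adjusted p = 0.0355), with both effects positive and that at implantation larger. Kcnd2 differed by -3.01 (adjusted p = 0.0347), with a lower level at E0.5. Kcnk5 differed by -2.06 (adjusted p = 0.0247), and its effect at implantation did not pass by itself. The differences ranged over 2.76 to 3.59, 1.87 to 2.43, -3.52 to -2.67 and -2.25 to -1.77, in the same order, when each of the 12 libraries was left out. The adjusted p was passed in 12 of 12 such fits by Kcnn4, in 4 by Kcnip2, in 3 by Kcnd2 and in 8 by Kcnk5. With a replicate block 0 members passed it. Groups of 3 were too small for a test of single samples against their group.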

How the results depend on the processing

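With 3 mice per day and 1 E4.5 library with high ovary markers, the counts of called members moved with the setting. At implantation 17 members met the study's criterion, 8 with a mean of at least 1 FPKM, 10 and 5 with limma at pseudocounts of 0.1 and 1, and 2 when p was adjusted. By adjusted p the count of 2 went to 4 with a mean of at least 1 FPKM, 10 with DESeq2, 1 with limma at a pseudocount of 1 and 11 without E4.5 replicate 3 in the filter or the fit, a setting chosen after seeing the data. Leaving out rows without a gene name, also chosen after seeing the data, gave 17 by the criterion and 3 by adjusted p. Leaving out 1 library gave 13 to 21 members by the criterion and 0 to 11 by adjusted p. At labor the 4 called members became 2 with a mean of at least 1 FPKM, 1 with a pseudocount of 1 and 0 when p was adjusted, and 3 to 7 when 1 library was left out, with 7 without E15.5 replicate 3 or E18.5 replicate 3. By adjusted p leaving out 1 library gave 0 to 1. The difference between stages gave 4 members, and 1 to 7 when 1 library was left out. The cause of these moves was not tested, beyond the fewer rows of stricter filters and the fewer samples of smaller fits.

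Replicate numbers did not pair the libraries (correlation of deviations between -0.0664 and 0.018). With a replicate block the adjusted-p count went from 2 to 0 at implantation, from 4 to 0 for the difference between stages, and stayed at 0 at labor, and the criterion gave 15 and 5 members.

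Of single genes, Kcnk3 and Kcne3 reversed between E0.5 and E4.5 without E4.5 replicate 3 in the filter or the fit, to 1.20 (from -1.46) and 1.83 (from -0.04). Kcnt1 and Kcna2 also changed sign and were called without that library, at 1.33 (from -1.66) and 1.70 (from -0.26). In all, 13 of 72 tested members changed sign without it, and these 4 were called in either fit. Leaving out 1 library gave log2 fold changes from -1.98 to 1.20 for Kcnk3 and from -0.69 to 1.83 for Kcne3. Over 72 single-gene results, 574 of 627 values under other settings and 377 of 456 without 1 library kept direction and side of the criterion. Without a filter 92 members were tested at implantation and 88 at labor, and 21 and 6 met the criterion.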
